A study of Mus musculus with 30 samples.

Results

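The genes of voltage-gated and HCN ion channels, with the channel subunits that share their gene names, were followed while mouse stem cells formed retinal tissue. Members were the protein-coding genes whose symbol begins with Kcn or Cacn, or is Scn or Hcn followed by its number, except Kcnj10, Kcnq1, Cacna1f and Cacna2d4. The rule found 136 gene identifiers with 133 symbols, among 45594 genes in the table and 22175 protein-coding ones. The symbols reach beyond voltage-gated pores: 14 members were inward rectifiers, 14 were leak channels of the Kcnk family and 12 were potassium channels opened by calcium or sodium. Auxiliary subunits were included too. Scn2a1, a neuronal sodium channel pore gene with an older symbol, did not match the rule and is given beside the members where its list is described. Cacng6, Cacng7 and Cacng8 each stood in the table with 2 identifiers, on chromosome 7 and on a patch of it, with equal values in all libraries, so their levels may be split between the copies.

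The material came from 1 clone of Nrl-GFP wild-type induced pluripotent stem cells (iPSCs), reprogrammed from fibroblasts of mouse embryos with inducible lentiviral Oct3/4, Sox2, Klf4 and c-Myc. Nrl-GFP mice carry green fluorescent protein under the promoter of Nrl, the rod transcription factor, and every library shares that reporter and those vectors. RNA was taken from iPSCs kept on feeder cells at day 0 (D0), from pools of 36 whole organoids at D4, and from dissected neural retina of pooled organoids on 8 later days, beginning with D7 and ending with D32 (D10, D12, D15 and D18, then D22 and D25, lie between). Per the labels, 3 biological replicates were made for each day, and there was no other treatment group. Culture conditions changed with the day for all organoids (medium at D7, D10 and D26, oxygen at D10), so day and culture condition cannot be told apart.

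Ion channels open and close a pore through the membrane. Voltage-gated sodium channels (Scn) start the action potential, calcium channels (Cacna1 pores with beta, alpha2delta and gamma subunits) couple voltage to transmitter release, and potassium channels (Kcn) bring the membrane back to rest. HCN channels open on hyperpolarization and carry an inward current. Rods and cones do not fire trains of action potentials: they signal by graded voltage, while ganglion cells and some amacrine and bipolar cells use sodium channels.

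Depth lay between 16.77 and 24.53 M (mega) estimated counts per library (median 19.23). The libraries fell into 2 sets by the share of Rpl3 counts that stood on Rpl3 pseudogenes, 12.0 to 31.8% in set 1 (each D0 and D7 library, and the replicates numbered 2 from D10 through D25) and 70.9 to 86.5% in set 2, the other 18 libraries. Over D10 to D25, where days held both sets, 5 of 111 tested members (4.5%, against 4.71% of 18291 genes) differed between the sets, namely Kcnab1, Kcnk10, Kcnk5, Kcnn1 and Scn8a. Replicate 2 of D4 also stood apart, with 28.4% of its counts on rRNA-like genes against at most 0.312% elsewhere. Without that library 120 members changed over all days. D4 was not among the days compared in the spans and steps below. Its values enter the test over all days, the days of highest means, the counts by level and the figures. The D4 libraries also shared the filter and the estimate of spread behind every comparison. Without replicate 3 of D4, 24 members instead of 17 were higher in D22 vs D18, and 37 instead of 30 in D32 vs D25. Levels are given in CPM (counts of a gene per M counts of its library, with library sizes adjusted by TMM), or in CPM per kb of transcript length where genes are compared with each other.

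Channel genes shifted toward the late days. Of the 136 members 120 had enough counts to be tested, and 118 of them changed over the 10 days at an adjusted p below 0.05 (quasi-likelihood F test of edgeR, p-values adjusted after Benjamini and Hochberg), where 91.4% of all 19897 tested genes did. The exceptions were Kcnj16 and Kcnmb1. The number of members with a mean of at least 10 CPM was 14 at D0, 19 at D4, 18 at D7, 31 at D10, 27 at D12 and at D15, 38 at D18, 42 at D22, 50 at D25 and 60 at D32. Such counts were not made over all genes, so this series does not set the members apart from other genes. D32 was the day of the highest mean for 46 tested members (38.3%), against 21.4% of all tested genes, and D0 was that day for 12 (10%), against 23.0% of all tested genes. The 16 members that were not tested (Kcna10, Kcne3, Kcng2, Kcng3, Kcnj1, Kcnj8, Kcnk4, Kcnk7, Kcnk12, Kcnk13, Kcnk15, Kcnk16, Kcnk18, Kcnmb3, Kcnv1 and Scn10a) had daily means of at most 0.619 CPM. Since a gene could pass the filter through its highest day alone, the shares that follow are descriptions of the tested members.

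The identifier with the highest level per length changed between D0, D7, D18 and D32. At D0 it was that of Kcnk5, a pH-sensitive potassium leak channel, at 15.5 ± 0.594 CPM per kb (SD, n = 3). With its copies summed, Cacng7, an auxiliary subunit of AMPA receptors, stood above it at 24.97 ± 3.26 CPM per kb. At D7 it was Cacng4, a relative of Cacng7, at 28.7 ± 8.22 CPM per kb, with 21.9 ± 2.45 for the summed copies of Cacng7, and at D18 Cacna1h, the pore of a T-type calcium channel that opens at low voltage, at 46.3 ± 3.52 CPM per kb. At D32 Kcnab2, a cytoplasmic beta subunit of Kv channels, had the highest mean, 94.3 ± 8.31 CPM per kb. The next was Kcne2, a small single-pass potassium channel subunit, at 74.8 ± 32.8 CPM per kb. The difference between them lay within their spread.

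**Figure D1:**
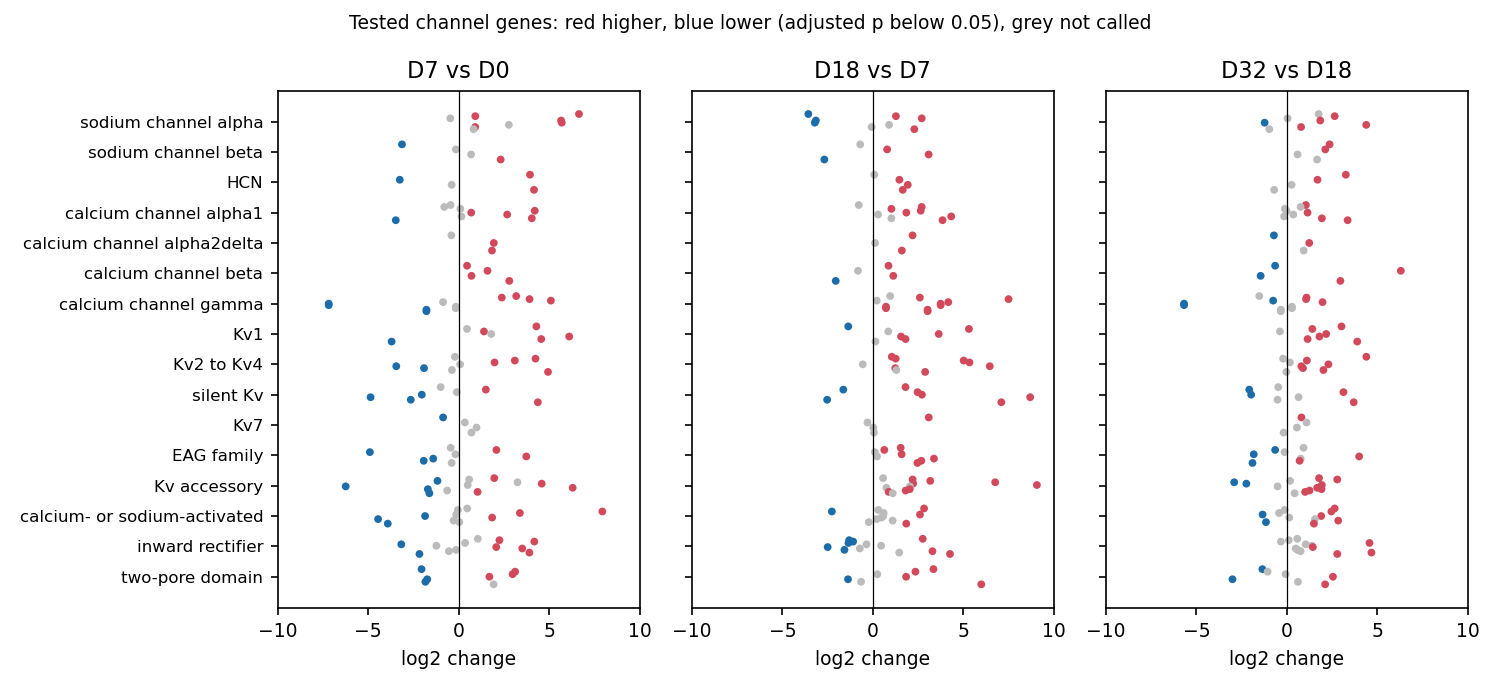
Log2 change of each tested channel gene (points) from D0 to D7 (left), D7 to D18 (middle) and D18 to D32 (right), in rows by subfamily; red points were higher and blue points lower at an adjusted p below 0.05 (edgeR, 30 libraries), grey points were not called. The calcium channel gamma row lies mostly right of 0 in D18 vs D7 (9 of 11 identifiers higher, with both equal copies of Cacng6, Cacng7 and Cacng8), and the Kv1 row in D32 vs D18 (6 of 7 higher).

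Between iPSCs and the D7 neural retina, 49 tested members were higher at D7 (28.8% of all tested genes were) and 29 were lower (29.6% of all tested genes), with a median log2 change of 0.46 over the members and 0 over all genes. Among the rises were pore genes that are best known from muscle and neurons.

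Scn4a, the sodium channel pore gene of skeletal muscle, had 0.276, 0.155 and 0.289 CPM at D0, then 12.5, 10.5 and 13.95 CPM at D7, and 0.389, 0.630 and 0.205 CPM at D10, with a log2 change of 5.65 (SE 0.55) from D0 to D7 and −3.15 (SE 0.45) from D7 to D18. All D7 libraries were above all D0 and D10 libraries. The gene was higher again at D22 than at D18 (log2 change 2.18, SE 0.44, adjusted p = 0.0021). The D7 libraries all belonged to set 1, and the set 1 library of D10, replicate 2, held 0.630 CPM of Scn4a, against 0.389 and 0.205 CPM in the set 2 libraries of that day. The summed level of 6 muscle markers (Myod1, Myog, Tnnt2, Actc1, Myh3 and Ttn) was 55.1 CPM at D0 (42.1 to 74.1 over the libraries), 11.7 CPM at D7 (9.16 to 14.1) and 2.75 CPM at D10 (2.33 to 3.28). Ttn carried the fall of this sum, with 46.1 ± 17.01 CPM at D0 and 2.25 ± 0.429 at D7. Actc1, an actin of heart and fetal muscle, had its highest mean at D7, with 0.442, 0.466 and 0.520 CPM at D0, 5.74, 8.78 and 10.08 CPM at D7 and 0.389, 1.21 and 0.564 CPM at D10. The part of these markers in the D7 peak was not tested.

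Kcnip1, a calcium-binding partner of Kv4 channels, had 0.0552, 0.104 and 0.0578 CPM at D0, 3.83, 6.68 and 8.20 CPM at D7 and 1.99, 1.60 and 1.74 CPM at D10. Kcna1, a Kv1 channel of axons, had 0.442, 0.0518 and 0.405 CPM at D0, 7.19, 5.66 and 4.78 CPM at D7 and 2.33, 1.45 and 3.33 CPM at D10. In both genes the D7 libraries lay above all D0 and D10 libraries.

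**Figure D2:**
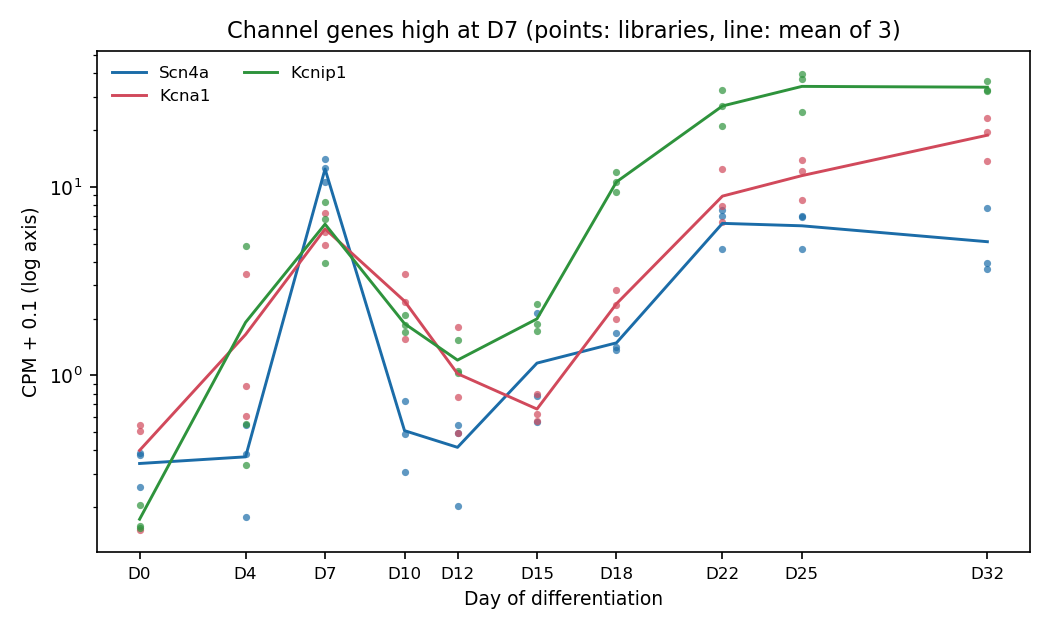
CPM + 0.1 (log axis) of Scn4a, Kcna1 and Kcnip1 by day of differentiation; points are libraries and lines join the means of 3. Each gene has a local maximum at D7, and all 3 stand above their D10 level again at D32.

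Other rises to D7 were carried on to later days. Cacng4 went from 3.70, 2.44 and 2.08 CPM at D0 to 124, 89.3 and 67.5 CPM at D7 (log2 change 5.09, SE 0.25), and its means then lay between 64.6 and 133 CPM. Cacna1d, the pore of an L-type calcium channel, rose from 0.457 ± 0.229 to 8.50 ± 0.272 CPM (log2 change 4.199, SE 0.21) and reached 99.9 ± 16.1 CPM at D12, its highest mean. Kcna6 and Kcnd3, both voltage-gated potassium channel pores, rose by 4.56 (SE 0.34) and 4.93 (SE 0.77) on the log2 scale, and Kcnb2, a delayed rectifier pore, by 4.24 (SE 0.61). Kcna5, a Kv1 pore, stood on 2 counts in all D0 libraries together and 164 at D7, a ratio of 80.9 with a 95% counting interval of 22.0 to 674.

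The members that fell from D0 to D7 had counts in the iPSC cultures, but not all stayed low afterwards. Kcnk1, a leak channel, had 22.7 ± 2.77 CPM at D0, 59.6 ± 6.48 CPM at D15 and 55.8 ± 5.05 CPM at D18. Kcnh3, an EAG-family channel of forebrain neurons, had 4.75, 4.61 and 5.84 CPM at D0 and 0.155, 0.215 and 0.114 CPM at D7 (log2 change −4.91, SE 0.64). Hcn2 fell from 10.7 ± 1.00 to 1.11 ± 0.219 CPM (log2 change −3.26, SE 0.30). Kcnk5 dropped from 50.2, 51.5 and 54.0 CPM to 19.4, 13.3 and 13.9 CPM, without overlap (log2 change −1.74, SE 0.29). Further falls past the threshold were those of Kcnn4, a calcium-activated channel (log2 change −4.46), Kcnu1, known from sperm (−3.92), Kcnj15 (−3.18), Kcns3 (−2.65), the leak channel Kcnk1 (−2.06), and Cacng6, which had 4.58, 3.78 and 2.31 CPM at D0 and 1 count in all D7 libraries together for each copy. D0 cultures held feeders: the sum of 6 fibroblast markers was 799 CPM at D0 (451 to 1215) and 79.1 CPM at D7 (70.9 to 83.2), while that of 4 pluripotency markers went from 2126 to 30.6 CPM. The part of either in these falls was not tested, and in bulk RNA fewer cells of a type and less RNA per cell cannot be told apart.

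From D7 to D18, when the first retinal neurons and photoreceptor precursors appear in such cultures, 68 of 120 members were higher at D18 (26.8% of all tested genes) and 15 were lower (22.23%). The median log2 change was 1.27 over the members and 0.05 over all genes. By subfamily, 9 of 11 calcium channel gamma identifiers rose, as did 7 of 9 pore genes of the Kcnb, Kcnc and Kcnd families, 6 of 9 calcium channel pores and 6 of 8 EAG-family members (Kcnh), with no fall in any of these groups. The 11 identifiers count both copies of Cacng6, Cacng7 and Cacng8, whose values are equal. Inward rectifiers were divided, with 3 higher and 5 lower of 12.

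Cacna1h (ENSMUSG00000024112, chr17:25374285-25433783 in GRCm38) had 13.4, 8.35 and 14.01 CPM at D7, 74.8, 67.7 and 69.0 CPM at D10 and 221, 254 and 246 CPM at D18. The groups did not overlap, and the gene rose by 4.33 on the log2 scale from D7 to D18 (SE 0.28, adjusted p = 4.4e-12). From D18 to D32 its mean moved from 240 ± 17.5 to 217 ± 45.3 CPM, within the spread. Kcnc1, a fast potassium channel of neurons that fire at high rates, went from 2.48, 1.24 and 1.08 CPM to 59.8, 37.7 and 60.3 CPM (log2 change 5.02, SE 0.44). Kcnc4 (6.47, SE 0.51), Kcnc2 (5.34, SE 0.42) and the axonal Kcna2 (5.31, SE 0.40) rose with it. Cacng3, an AMPA receptor auxiliary subunit, had at most 0.215 CPM in any D7 library and 19.4, 17.2 and 16.0 CPM at D18 (log2 change 7.50, SE 0.39).

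Some members were almost undetected at D7. Kcne2 stood on 3 counts over the D7 libraries and 2008 over those of D18, a ratio of 594 with a 95% counting interval of 203 to 2882. Its D18 libraries held 21.0, 39.7 and 36.9 CPM. Kcns2, a silent Kv subunit, had 0 counts at D7 and 165 at D18, which made it at least 48.8-fold higher when D7 is set to 3 counts over its libraries. Kcne1 had 3 counts at D7 and 416 at D18 (ratio 123, 95% interval 41.8 to 599), and it was among the falls of the next span.

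Among the falls from D7 to D18 were inward rectifiers. Kcnj2, a classical inward rectifier of muscle and glia, had 4.19, 3.12 and 2.39 CPM at D7 and 0.812, 0.253 and 0.632 CPM at D18 (log2 change −2.49, SE 0.56). Kcnj12 fell from 8.97 ± 1.87 to 3.62 ± 0.780 CPM, and Kcnj13, a channel of pigment epithelium, from 3.74 ± 0.265 to 1.75 ± 0.239 CPM. The summed level of 5 pigment epithelium markers was 6.17 CPM at D7, 66.3 CPM at D10 and 5.11 CPM at D18. Tyr carried this sum, with means of 5.50 CPM at D7, 63.0 CPM at D10 and 3.80 CPM at D18. Rpe65 had a mean of 0.0162 CPM at D10 and no counts at D7 and D18. Rgr went the other way, from 0.0485 CPM at D10 to 0.734 CPM at D18. The part of these markers in the values of Kcnj13 was not tested. Kcnj14, which is described again with the photoreceptor channels, fell from 1.66, 1.45 and 2.16 CPM at D7 to 0.632, 0.658 and 0.778 CPM at D18 (log2 change −1.34, SE 0.53, adjusted p = 0.039). Kcnk5 (−1.37, SE 0.30), Kcng1 (−1.63, SE 0.28), Kcna1 (−1.36, SE 0.50) and the calcium channel subunit Cacnb4 (−2.05, SE 0.70) were lower at D18 too, as log2 changes. Leaving out 1 library ended the call for Kcnj13 (replicate 3 of D18), Kcnj14 (replicate 1 or 3 of D7, any of D18), Kcna1 (replicate 1 of D7, 1 or 3 of D18) and Cacnb4 (replicate 3 of D7, 1 or 2 of D18).

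From D18 to D32, the span of rod maturation, 53 members were higher at D32 (20.6% of all tested genes) and 18 were lower (23.7%). The median log2 change was 0.78 over the members and −0.0050 over all genes. Kcnv2, a silent Kv subunit of photoreceptors, Cacnb2 and the inward rectifier Kcnj14, listed as photoreceptor channels, were all 3 higher, with a median of 4.57. They were picked with knowledge of photoreceptors and of earlier results, so their shared direction is no independent evidence.

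Kcnv2 (ENSMUSG00000047298, chr19:27322588-27337179 in GRCm38, plus strand) was without a count in every D0 library. It had 5.09, 9.15 and 5.07 CPM at D15, 17.4, 17.2 and 20.1 CPM at D18, 51.0, 90.0 and 71.7 CPM at D22, 151, 215 and 129 CPM at D25 and 201, 253 and 256 CPM at D32. The libraries of D25 and D32 overlapped, unlike those of the days before. The change from D7 to D18 was 7.104 (SE 0.40) and that from D18 to D32 3.70 (SE 0.25) on the log2 scale.

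Cacnb2 (ENSMUSG00000057914, chr2:14603088-14987908 in GRCm38, plus strand), the beta subunit of the calcium channel at the photoreceptor synapse, rose most among these 3. Its libraries held 2.93, 0.961 and 1.897 CPM at D18, 4.57, 9.67 and 7.74 CPM at D22, 27.1, 33.5 and 28.7 CPM at D25 and 131, 167 and 164 CPM at D32. No day overlapped the next, and the log2 change from D18 to D32 was 6.30 (SE 0.37, adjusted p = 5.9e-13). Kcnj14 had 0.632, 0.658 and 0.778 CPM at D18, 12.19, 25.0 and 15.28 CPM at D25 and 9.45, 20.2 and 19.9 CPM at D32 (log2 change from D18 to D32 4.57, SE 0.54). Its rise lay before D25, and its D25 and D32 libraries overlapped.

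**Figure D3:**
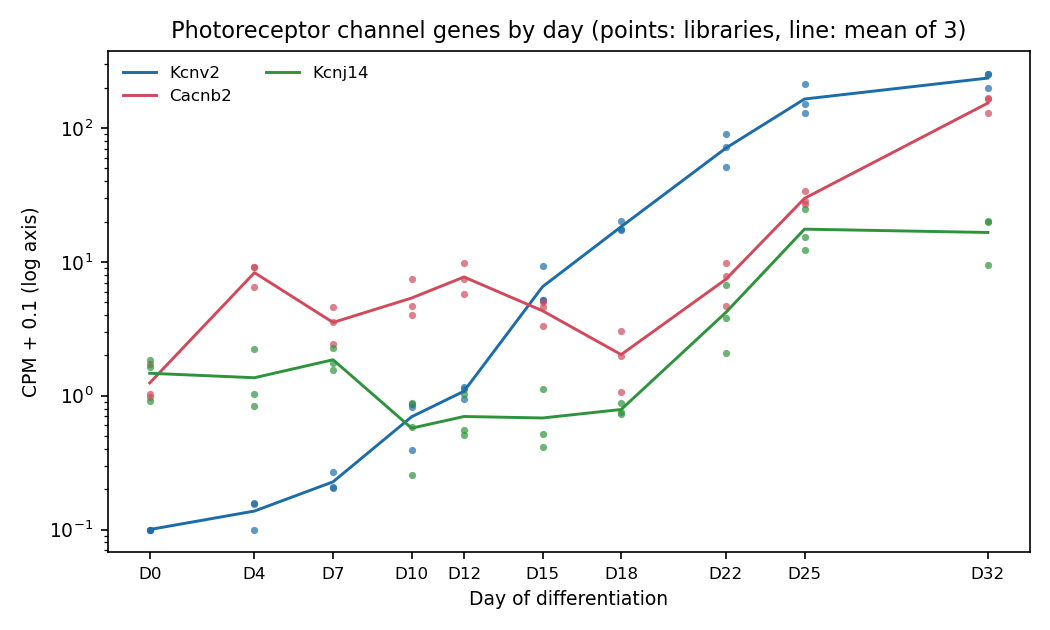
CPM + 0.1 (log axis) of Kcnv2, Cacnb2 and Kcnj14 by day of differentiation; points are libraries and lines join the means of 3. All 3 climb from D18 to D25, and Cacnb2 climbs on from about 30 CPM at D25 to 131, 167 and 164 CPM at D32, where Kcnj14 is level.

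The steps of this span differed in what moved. From D18 to D22, 17 members were higher (3.75% of all tested genes) and 4 lower (4.44%), and from D22 to D25 5 were higher (1.45%) and none lower (1.02%). The 5 included Cacnb2 (log2 change 2.02, SE 0.31), Kcnj14 (2.09, SE 0.46) and Kcnv2 (1.22, SE 0.23). At an unadjusted p below 0.05 from edgeR, 11 members were higher and 8 lower in that step; DESeq2 called 1 lower and limma none. Rod markers moved over the same days: the sum of Nrl, Gnat1, Pde6b and Nr2e3 was 66.8 CPM at D18 (36.7 to 84.8), 837 at D22 (487 to 1160), 1999 at D25 (1508 to 2721) and 2181 at D32 (1954 to 2398), with no marker at 0, and its part in these rises was not tested. From D25 to D32 the 4 markers parted. Nr2e3 went from 601 ± 249 to 409 ± 34.5 CPM and Nrl from 881 ± 252 to 819 ± 114 CPM. Pde6b went from 513 ± 156 to 883 ± 52.8 CPM and Gnat1 from 3.86 ± 0.678 to 70.1 ± 51.6 CPM. The step from D22 to D25 rested on single libraries, as 1 member was called higher without replicate 1 of D22 or without replicate 2 of D25, and 2 without the set 1 libraries of D10 to D25.

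Members outside the photoreceptor list rose from D18 to D22 as well. Kcna5 went from 8.71 ± 3.21 to 41.0 ± 6.94 CPM (log2 change 2.23, SE 0.40), Kcna6 from 20.1 ± 3.17 to 48.5 ± 9.83 CPM (1.27, SE 0.21), and Cacng3 from 17.5 ± 1.75 to 38.5 ± 4.24 CPM (1.14, SE 0.23). All had similar means at D22, D25 and D32, with Cacng3 between 36.7 and 38.5 CPM. Most estimated counts of Kcna6 on these days were given to Kcna6-001, a transcript annotated for nonsense-mediated decay and not as protein-coding. Its share was 44.2 ± 19.5% at D7, 71.1 ± 6.04% at D18, 71.7 ± 8.93% at D22 and 81.5 ± 8.04% at D32. Kcnj6, a channel opened by G proteins, had 0.135, 0.405 and 0.243 CPM at D18, 0.667, 1.52 and 1.59 CPM at D22, and 8.04, 7.02 and 5.23 CPM at D32 (log2 change from D18 to D32 4.68, SE 0.47). Kcne1 (−1.98), Kcng1 (−1.19) and Cacnb1 (−0.62) were among the falls. The count of falls was 0 without replicate 3 of D18 or replicate 1 of D22, 1 without replicate 2 of D22 and 2 without replicate 1 of D18, and that of rises was 11 without replicate 2 of D22. Without the set 1 libraries of D10 to D25, 8 members were higher and none lower.

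The beta subunits of calcium channels changed places. Cacnb3 (ENSMUSG00000003352, chr15:98632220-98644530 in GRCm38), a beta subunit of many neurons, made up 70.4 ± 6.92% of the summed CPM per kb of Cacnb1 to Cacnb4 at D0, 77.9 ± 2.98% at D18, 64.1 ± 2.97% at D25 and 16.5 ± 1.16% at D32. Cacnb2 had 22.6 ± 2.94% at D25 and 74.0 ± 1.75% at D32. The libraries of those days did not overlap for either gene. The exchange had both sides: Cacnb3 fell from 64.5, 81.1 and 95.3 CPM at D25 to 30.1, 33.2 and 32.4 CPM at D32 (log2 change −1.33, SE 0.18, adjusted p = 3.5e-06), while Cacnb2 rose by 2.37 (SE 0.30, adjusted p = 1.9e-06). The sum of the 4 genes went from 46.0 ± 6.55 to 72.6 ± 8.50 CPM per kb. Cacnb2-003, a transcript annotated as a retained intron, is part of these shares. It held 21.5 ± 1.39% of the estimated counts of Cacnb2 at D25 and 18.8 ± 1.54% at D32.

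Among the HCN genes, Hcn2 had its highest mean at D0, 10.7 ± 1.00 CPM. Hcn4, known from the pacemaker of the heart, rose from D0 to D7 by 4.16 (SE 0.42) and from D7 to D18 by 1.65 (SE 0.31) on the log2 scale. Its libraries held 12.14, 18.8 and 16.3 CPM at D18 and 8.67, 12.14 and 8.34 CPM at D32, a change of −0.70 that did not pass the test (SE 0.30, adjusted p = 0.059). Hcn3 was between 2.47 and 12.05 CPM on every day, and Hcn2 went from 3.11 ± 0.752 CPM at D18 back to 10.07 ± 0.186 CPM at D32 (log2 change 1.70, SE 0.27).

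**Figure D4:**
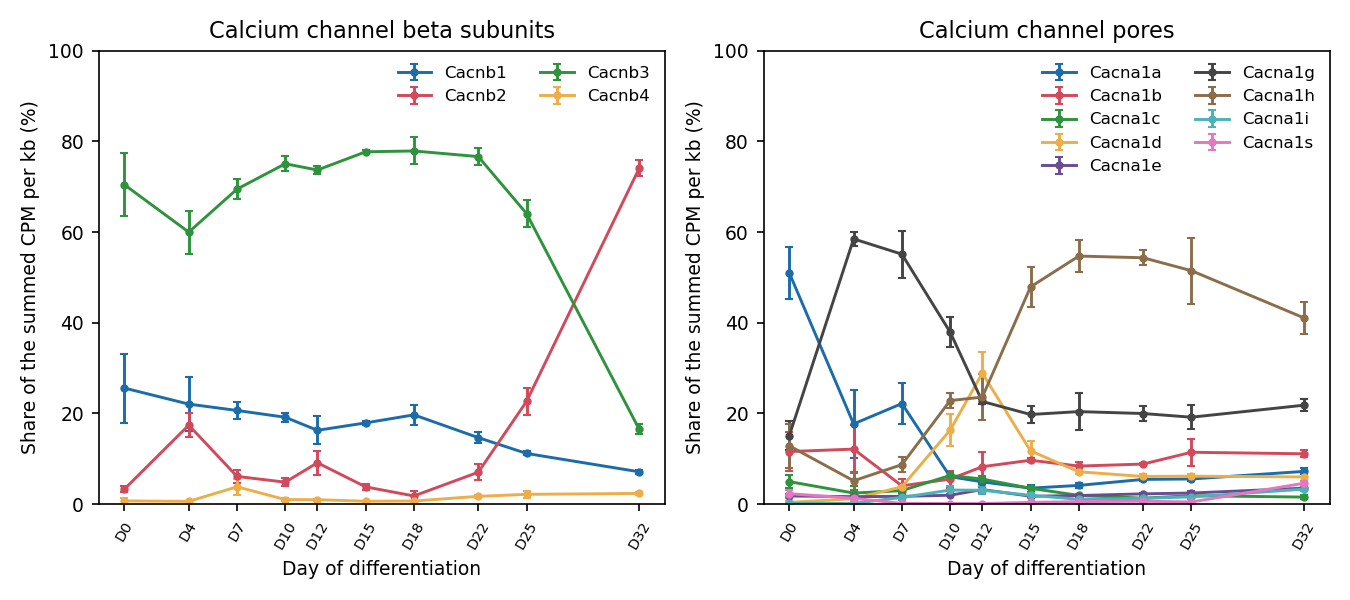
Share (%) of each gene in the summed CPM per kb of the calcium channel beta subunits (left) and of the calcium channel pores (right, members only, so without Cacna1f) by day; points are means of 3 libraries and bars 1 SD. Cacnb2 passes Cacnb3 between D25 and D32, from 22.6% to 74.0%. Among the pores the lead is with Cacna1a at D0, Cacna1g at D7 and Cacna1h at D18, while at D12 Cacna1d had the highest mean CPM per kb.

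The mix of calcium channel pores changed too. It was taken over the 9 pore genes among the members, so Cacna1f is not in the sums or the rankings. Cacna1a, the P/Q-type pore, held 51.0 ± 5.71% of their summed CPM per kb at D0. Cacna1g, a T-type pore, held 55.1 ± 5.15% at D7, and Cacna1h, another T-type pore, 54.7 ± 3.62% at D18 and 41.1 ± 3.49% at D32. Between these days, at D12, Cacna1d had the highest mean of the pores, 11.2 ± 1.70 CPM per kb. Cacna1h had 9.22 ± 2.03 CPM per kb at D12, a difference within their spread. Scn8a, the sodium channel of mature axons, had 25.0, 20.5 and 20.0 CPM at D0, 46.0, 39.1 and 37.6 CPM at D7, 37.8, 50.5 and 28.7 CPM at D18 and 76.2, 66.1 and 60.05 CPM at D32. The D32 libraries stood above those of D18 (log2 change 0.79, SE 0.25, adjusted p = 0.012), and Scn8a was among the members that differed between the library sets.

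Sodium and potassium channels of spiking axons formed a list of their own. Of 10 of its genes (Scn1a, Scn2a1, Scn3a, Scn8a, Scn2b, Scn3b, Scn4b, Kcna1, Kcna2 and Kcnq3), 6 were higher and 2 lower at D18 than at D7, where 26.8% and 22.23% of all tested genes were. At D32 against D18, 5 were higher and none lower, where 20.6% and 23.7% of all tested genes were. Scn1a, a sodium channel pore, had 3.61, 2.28 and 3.70 CPM at D18 and 22.21, 17.6 and 20.3 CPM at D32, without overlap (log2 change 2.65, SE 0.31). Kcna2 had 11.7, 17.7 and 16.4 CPM at D18 and 47.0, 41.0 and 33.8 CPM at D32 (1.41, SE 0.29). Scn3a (0.04, SE 0.41), Scn3b (0.59, SE 0.42), Scn4b (1.68, SE 0.91), Kcnq3 (1.09, SE 0.47) and the non-member Scn2a1 (0.60, SE 0.35) did not pass the test in that span. The calls of Scn8a at D32, and of Scn2b, Kcna1 and Scn4b at D18, were each lost when 1 of several libraries was left out. The summed level of 6 ganglion cell markers was 204 CPM at D18 (163 to 235) and 55.2 CPM at D32 (53.4 to 58.3), and that of 4 amacrine markers 171 (147 to 216) and 423 (403 to 436); the part of either was not tested.

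The last step, from D25 to D32, brought 30 members up (9.31% of all tested genes) and 6 down (13.8%). Among the members with at least 2 CPM at D32, the largest rises were those of 3 channels with low levels at D25. Scn7a, a sodium channel relative that senses sodium outside the cell, had 0.0467, 0.0920 and 0.0475 CPM at D25 and 8.23, 7.45 and 4.05 CPM at D32 (log2 change 6.58, SE 0.87, adjusted p = 3.3e-06). Kcng4, a silent Kv subunit, had 0.561, 1.10 and 0.807 CPM at D25 and 12.9, 14.9 and 15.099 CPM at D32 (4.11, SE 0.40, adjusted p = 3.3e-08). Cacna1s, the L-type pore of skeletal muscle, had 0.934, 1.24 and 1.19 CPM at D25 and 11.8, 13.2 and 9.82 CPM at D32 (3.37, SE 0.55, adjusted p = 5.9e-05). Of its estimated counts at D32, 33.2 ± 9.40% were given to Cacna1s-004, a transcript annotated as a retained intron. The D32 libraries of all 3 stood above every earlier library. Below that level, Scn4b, a sodium channel beta subunit, was called higher on 1 count at D25 and 20 at D32 (ratio 20.75, 95% counting interval 3.32 to 860), and leaving out replicate 1 or 2 of D25 or replicate 3 of D32 ended that call.

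More members followed in this step with smaller changes. Kcnab2 went from 93.1, 115 and 124 CPM to 259, 236 and 286 CPM (log2 change 1.24, SE 0.25), and Kcnma1, the large calcium-activated potassium channel, from 20.4, 23.4 and 22.6 CPM to 52.8, 56.4 and 50.1 CPM (1.26, SE 0.23). Kcnv2 (0.52, SE 0.22) did not pass the test in this step. Of the 6 falls, Kcne1l, a small potassium channel subunit, was the largest, from 6.59, 7.82 and 8.40 CPM to 1.75, 1.28 and 1.33 CPM (−2.38, SE 0.28). Kcnh4 (−1.61), Kcnh8 (−1.52), Kcnk5 (−1.41), Cacnb3 and Kcnk2 were the others, and without replicate 2 of D32 Kcnh8 was not called. Kcnk5 reached 0.487, 1.04 and 0.691 CPM.

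The summed level of 4 bipolar cell markers (Grm6, Cabp5, Vsx1 and Prkca) was 34.6 CPM at D18 (32.18 to 36.4), 62.2 CPM at D25 (49.9 to 75.7) and 238 CPM at D32 (226 to 256), and that of the muscle markers 16.9 CPM at D25 (13.2 to 19.6) and 33.0 CPM at D32 (24.8 to 48.9). The muscle sum rose through Tnnt2, from 0.139 ± 0.159 to 19.4 ± 5.62 CPM, while Ttn had 12.14 ± 3.55 and 9.45 ± 7.69 CPM and Myh3 3.34 ± 1.14 and 0.819 ± 0.400 CPM. Their part in the last step was not tested. All D32 libraries belonged to set 2, as did 2 of the 3 D25 libraries, and 18 members were called higher in this step without replicate 1 of D25.

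**Figure D5:**
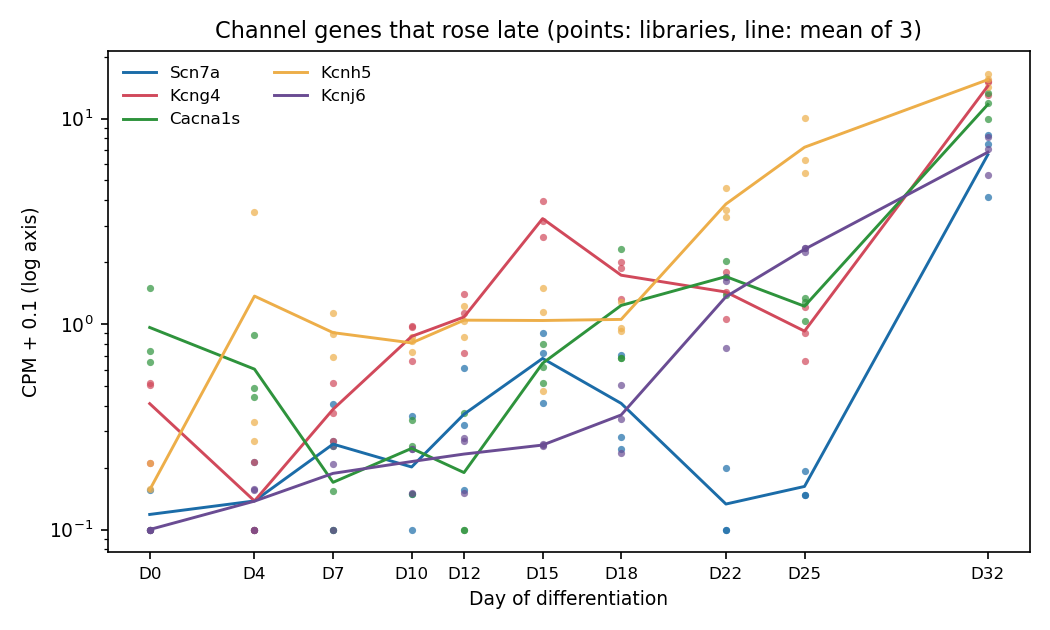
CPM + 0.1 (log axis) of Scn7a, Kcng4, Cacna1s, Kcnh5 and Kcnj6 by day of differentiation; points are libraries and lines join the means of 3. Scn7a, Kcng4 and Cacna1s are at or below 1.24 CPM in every D25 library and at 4.05 CPM or more at D32, while Kcnh5 and Kcnj6 climb from D18.

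Promoter letters were read for the members that were higher at D32 than at D18, since Crx and Otx2, the homeobox factors of photoreceptors and bipolar cells, bind TAATCC. The RefSeq windows (GRCm38.p6) hold 300 bases around an annotated start, and 98 of 133 member symbols had one. On either strand (TAATCC or GGATTA), the letters were in 7.06% of 32851 windows of all genes, in 4 of 54 windows of members higher at D32 (7.41%) and in 3 of 79 windows of the other members (3.80%). The letters TGCTGA (or TCAGCA), the core of the Nrl site, were in 19.5%, 16.7% and 20.3% of these windows. The 4 windows with TAATCC were those of Scn7a, Kcng4 and Cacna1s, the 3 largest rises of the last step to at least 2 CPM, and of Kcnj9, a channel opened by G proteins that rose by 2.79 (SE 0.37) from D18 to D32; that the 3 were among them was noticed after their values were seen. For TAATCC, the share in members higher at D32 was near that of all genes. In the photoreceptor list, the windows of Cacnb2 held neither TAATCC nor TGCTGA on either strand. A match is a description of letters and not of a bound site. The matches are shown with their surroundings, 5′ to 3′ in the direction of the gene, with the matched letters in capitals.
Scn7a, chr2:66785083-66785160, minus strand: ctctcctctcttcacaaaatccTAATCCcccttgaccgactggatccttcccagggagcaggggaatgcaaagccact
Kcng4, chr8:119635676-119635697, minus strand: tgatggagagatTAATCCtaag
Cacna1s, chr1:136052745-136052774, plus strand: gagcagagagagTAATCCtcccgcccccac
Kcnj9, chr1:172329364-172329469, minus strand: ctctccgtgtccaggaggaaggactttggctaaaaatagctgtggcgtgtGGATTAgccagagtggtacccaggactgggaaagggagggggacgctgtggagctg
The first matched letter lay 228 bases before the RefSeq start in Scn7a, 5 in Kcng4, 54 in Cacna1s and 97 in Kcnj9, where the letters are on the opposite strand.

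Transcript estimates moved within Kcnh2, the channel of the cardiac rapid delayed rectifier. The long transcript Kcnh2-001 held 83.9, 73.3 and 79.1% of the gene's estimated counts at D0 and 33.8, 46.5 and 39.4% at D18, without overlap. The short transcript Kcnh2-002 held 7.91, 20.8 and 14.1% at D0 and 61.2, 45.0 and 53.1% at D18. By D32 the lead was again with Kcnh2-001, at 50.6, 50.9 and 54.25%. Kcnh2-002 then held 42.8, 44.7 and 41.8%. From D10 to D25 the set 1 library had the highest share of Kcnh2-001 on each day, and all D0 libraries belonged to set 1. The gene as a whole had its highest mean at D15, 86.2 ± 17.8 CPM, after 8.03 ± 1.99 CPM at D0. These shares come from reads divided between similar transcripts, and they were not tested.

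Partner genes of channels were followed over the same spans. Of 21 (ankyrins, Fgf homologous factors, cell adhesion molecules of the axon initial segment, Dpp subunits, sodium pump subunits and others), 12 were higher and 4 lower at D7 than at D0 (28.8% and 29.6% of all tested genes), 16 higher and 2 lower at D18 than at D7 (26.8% and 22.23%), and 12 higher and 2 lower at D32 than at D18 (20.6% and 23.7%). The medians were 0.70, 1.51 and 0.57 on the log2 scale. Fgf12, which binds sodium channels, led the rises to D7 (5.91, SE 0.47). Stac2, a partner of L-type calcium channels (4.85, SE 0.24), and Fgf11 (4.43, SE 0.27) rose from D7 to D18, and Atp1b2 (2.50, SE 0.23) and Nfasc, an adhesion molecule of axons (2.49, SE 0.26), from D18 to D32.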

How the data were processed

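Estimated counts per gene and per transcript were deposited by the authors, with a normalised signal per gene (CPM). The submitters' processing notes name Trimmomatic 0.36, kallisto 0.42.4, edgeR and GRCm38.p4; how transcripts were summed to genes and whether strand was used are not given in the sources used here. 9 columns that match no listed sample were not used.

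Gene estimates were rounded and fitted with edgeR 4.0.16 in R 4.3.3: filterByExpr by day (minimum count 10, minimum total 15), TMM factors (0.524 to 1.162), 1 mean per day over 30 libraries, quasi-likelihood F tests, and Benjamini-Hochberg adjustment over 19897 genes with a threshold of 0.05. The fit was tested on simulated data. Every day shares its libraries between the comparisons it is part of.

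Members, lists and comparisons were chosen with earlier results of these data known. Genes were named by a rule: called, libraries not overlapping, at least 2 CPM on the higher day, the 10 largest rises and falls of a span and the 4 largest of a late step, with the members of the lists, all HCN and beta subunits and the highest member of each subfamily. Kcnj9, Kcnma1, Kcnk2, Kcnj16, Kcnmb1 and the members not tested were named outside it, after their values were seen. A day with 0 counts was set to 3 counts over its libraries, and counting intervals are exact at 95%; both cover counting error only. Alternatives were RLE factors, a fit with no filter by expression, DESeq2 1.42.0, and limma 3.58.1 on the deposited CPM. A library set term, a replicate block, fits of just the compared days and leaving out libraries were used too. Some members and list genes are not reported here, and lists and marker sums are given without them, while counts over the 136 members hold all. The protein sequences of the channels were not used here.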

Additional observations from a re-analysis of the deposited data

How the results depend on the processing

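None of the 165 named changes past the threshold changed direction under an alternative. Of the 13 others, 4 had another sign in at least 1 fit, namely Kcnq3 in D7 vs D0 and D18 vs D7, Scn8a in D18 vs D7 and Scn3a in D32 vs D18. Many named genes were chosen for large called changes without overlap between libraries. A kept direction was therefore largely set by that choice and is no independent evidence. Both equal copies of Cacng6 are counted. Counts of the 3 spans stayed within 1.5 times of their values. Counts of the late steps moved more. Fitting just the 6 libraries that a step compares, 2 members were higher at D25 than at D22 and 46 at D32 than at D25. In D25 vs D22, limma on log2(CPM + 1) of the deposited CPM called 8 higher, the fit without the set 1 libraries of D10 to D25 (an alternative chosen after seeing the data) 2 higher, and the library set term and DESeq2 1 lower each. In D22 vs D18, the fit without those set 1 libraries called 8 higher and 0 lower. The causes were not tested. Fits of just 6 libraries, or without the set 1 libraries, also held fewer samples.

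Leaving out each library gave 118 to 121 members over all days, 44 to 50 higher and 29 to 33 lower in D7 vs D0, 63 to 71 and 11 to 19 in D18 vs D7, 47 to 57 and 16 to 20 in D32 vs D18, 11 to 24 and 0 to 5 in D22 vs D18, 1 to 7 and 0 to 1 in D25 vs D22, and 18 to 37 and 5 to 8 in D32 vs D25. Of 178 changes of named genes, 153 kept their side of the threshold without the set 1 libraries of D10 to D25, 164 with limma, 170 with no filter, 174 with DESeq2, RLE factors or the set term, and 178 without replicates 2 and 3 of D4.

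Over all days, deviations of same-numbered libraries correlated at r −0.409 to 0.451 (median 0.065, n = 135 pairs of libraries), and the numbers were not taken as pairs in the main fit. From D10 to D25, where number 2 is also the set 1 library, r was 0.0991 to 0.449 for number 2 (median 0.366, 15 pairs). For number 1 it was −0.019 to 0.392 (median 0.162), and for number 3 0.0895 to 0.451 (median 0.268). Same-numbered libraries thus tended to deviate together over those days. Deviations were taken from the mean of the 3 libraries of a day, so a shift of number 2 alone also moves numbers 1 and 3 together. These values therefore do not show a pairing by number. Pairs with different numbers had a median r of −0.035 over all days (n = 270). The set term and the replicate block are the fits that bear on these shared deviations. With the replicate number as a block, 118 members changed over all days, 49 were higher and 30 lower in D7 vs D0, 69 and 17 in D18 vs D7, 53 and 18 in D32 vs D18, 18 and 4 in D22 vs D18, 5 and 0 in D25 vs D22, and 33 and 6 in D32 vs D25; all 178 named changes kept their call. Depth limits members near 0, such as those not tested.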
